A study of Homo sapiens with 4 samples.

Results

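This report describes 7 helix-loop-helix genes of lymphocytes in an anaplastic large cell lymphoma line: MSC, the E protein genes TCF3, TCF4 and TCF12, and the ID repressor genes ID1, ID2 and ID3. They were taken by symbol from the genes counted on their own strand, and all 7 were present among 22798 genes. The set was chosen by a measured value, the higher MSC level with SM-164, so the MSC values in that comparison are a description without a test. The data are Bru-seq libraries of Karpas 299, an established human line from a T cell lymphoma with the receptor CD30 on its surface. In this assay cells take up bromouridine, and the labelled RNA, made during the labelling window, is captured with an antibody and sequenced. There were 4 libraries in 2 experiments, with 1 library per condition: cells given SM-164, a Smac mimetic of bivalent form that targets inhibitor of apoptosis proteins, cells given the solvent DMSO, cells laid on CD30L+ CHO cells (Chinese hamster ovary cells that carry the ligand of CD30), and cells laid on plain CHO cells without the ligand. Each treatment lasted 3 h with bromouridine in the last 30 min. A single cell line was studied, no dose of SM-164 is named in the sources used here, and the hamster cells were parted from the lymphoma cells only by gentle pipetting.

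E proteins are basic helix-loop-helix transcription factors that bind the E-box, a short DNA motif, as dimers, and in lymphocytes they drive the programmes that commit precursors to the B cell and T cell lineages. ID proteins keep the helix-loop-helix part but lack the basic part that touches DNA, so an E protein paired with an ID protein cannot bind. MSC (musculin, also called ABF-1 or MyoR) belongs to the tissue-restricted partners of E proteins, binds E-boxes together with them and represses. In the tumour cells of Hodgkin lymphoma, another CD30-positive lymphoma, MSC and ID2 are known to hold down E protein activity.

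The library totals were 26217590 reads with SM-164, 31030478 with DMSO, 45535365 on CD30L+ CHO cells and 45885631 on plain CHO cells. Of 9 markers of anaplastic large cell lymphoma, 8 had at least 0.5 RPKM (reads scaled to counted length and library total) in every library, ALK being the exception with values from 0.0966 to 0.137 RPKM. The ALK value is an average over the whole gene with introns, so transcription of only a part of the gene was not resolved. Of the B cell markers, MS4A1 was at 0 RPKM in all 4 libraries and PAX5 was at most 0.394 RPKM. The summed level of 11 stromal markers was 0.182 RPKM with SM-164, 0.284 with DMSO, 0.0309 on CD30L+ CHO cells and 0.0586 on plain CHO cells, and DCN was at 0 in all of them. Hamster reads that align to the human genome were not separated, and their part in the co-culture values was not tested. In bulk libraries fewer transcribing cells and less RNA per cell cannot be told apart.

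The ID genes are the clearest contrast of the set, with 1 strongly transcribed gene beside 2 nearly silent ones, so their promoter windows are shown, together with that of TCF3, the E protein gene that also has a single window. Each window runs from 250 bases before to 50 bases after the RefSeq start, written 5′ to 3′ along the gene, and capitals mark the E-box motif CANNTG, which reads the same on both strands. The GRCh38.p14 positions are chr20:31605039-31605338 on the plus strand for ID1, chr2:8681806-8682105 on the plus strand for ID2, chr1:23559452-23559751 on the minus strand for ID3 and chr19:1652566-1652865 on the minus strand for TCF3.
ID1: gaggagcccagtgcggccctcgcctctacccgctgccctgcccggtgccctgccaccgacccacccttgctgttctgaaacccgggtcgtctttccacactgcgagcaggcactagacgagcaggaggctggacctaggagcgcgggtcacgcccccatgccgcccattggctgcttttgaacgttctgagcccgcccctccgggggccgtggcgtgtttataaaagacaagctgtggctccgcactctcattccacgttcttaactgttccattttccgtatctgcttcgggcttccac
ID2: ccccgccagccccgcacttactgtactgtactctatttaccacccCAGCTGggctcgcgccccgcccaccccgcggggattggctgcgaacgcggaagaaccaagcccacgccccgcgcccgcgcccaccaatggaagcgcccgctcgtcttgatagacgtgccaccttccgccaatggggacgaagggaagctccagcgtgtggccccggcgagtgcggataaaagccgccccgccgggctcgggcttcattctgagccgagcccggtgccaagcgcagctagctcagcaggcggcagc
ID3: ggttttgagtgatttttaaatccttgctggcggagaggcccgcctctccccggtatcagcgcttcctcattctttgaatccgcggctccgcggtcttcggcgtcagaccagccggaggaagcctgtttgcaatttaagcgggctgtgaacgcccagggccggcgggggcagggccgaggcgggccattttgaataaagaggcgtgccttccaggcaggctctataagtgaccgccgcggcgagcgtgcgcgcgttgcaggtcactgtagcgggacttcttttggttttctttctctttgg
TCF3: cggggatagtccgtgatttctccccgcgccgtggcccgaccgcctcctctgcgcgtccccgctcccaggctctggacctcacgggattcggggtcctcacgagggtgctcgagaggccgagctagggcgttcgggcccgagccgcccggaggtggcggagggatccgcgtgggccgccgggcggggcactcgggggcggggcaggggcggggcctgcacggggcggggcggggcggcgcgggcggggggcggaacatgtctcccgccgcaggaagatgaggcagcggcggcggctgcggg

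Only the ID2 window of these 4 held the motif, once, as CAGCTG, and 68.7% of 35116 RefSeq windows of 300 bases held it at least once. The kappa-B consensus, searched on both strands, was also found in the ID2 window and in none of the other 3, against 11.3% of all windows. For TCF4, 7 of its 10 listed windows held an E-box and 2 the kappa-B consensus, and for TCF12 2 of 5 held an E-box and 1 the kappa-B consensus. The reads were counted over whole genes, so the start in use is not known. Windows were searched for 6 of the 7 genes, and MSC was left out of the search. A match describes letters only and shows no binding.

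MSC, the repressor, was transcribed in all 4 libraries and highest with SM-164. Its level was 5.82 RPKM with SM-164 (95% counting interval 5.30 to 6.38) and 2.66 RPKM with DMSO (2.34 to 3.02). On CD30L+ CHO cells it was 3.53 RPKM (3.22 to 3.86), and on plain CHO cells 1.43 RPKM (1.24 to 1.65). The intervals of the 4 libraries did not overlap, which covers counting error only, since the spread between repeats of a condition was not measured. The level placed MSC above 97.3% of genes with at least 300 counted bases with SM-164, above 91.7% with DMSO, above 94.8% on CD30L+ CHO cells and above 81.6% on plain CHO cells. MSC lies in hg19 on chromosome 8 from 72753777 to 72756731 on the minus strand, and its 2955 bases were counted over exons and introns together.

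**Figure D1:**
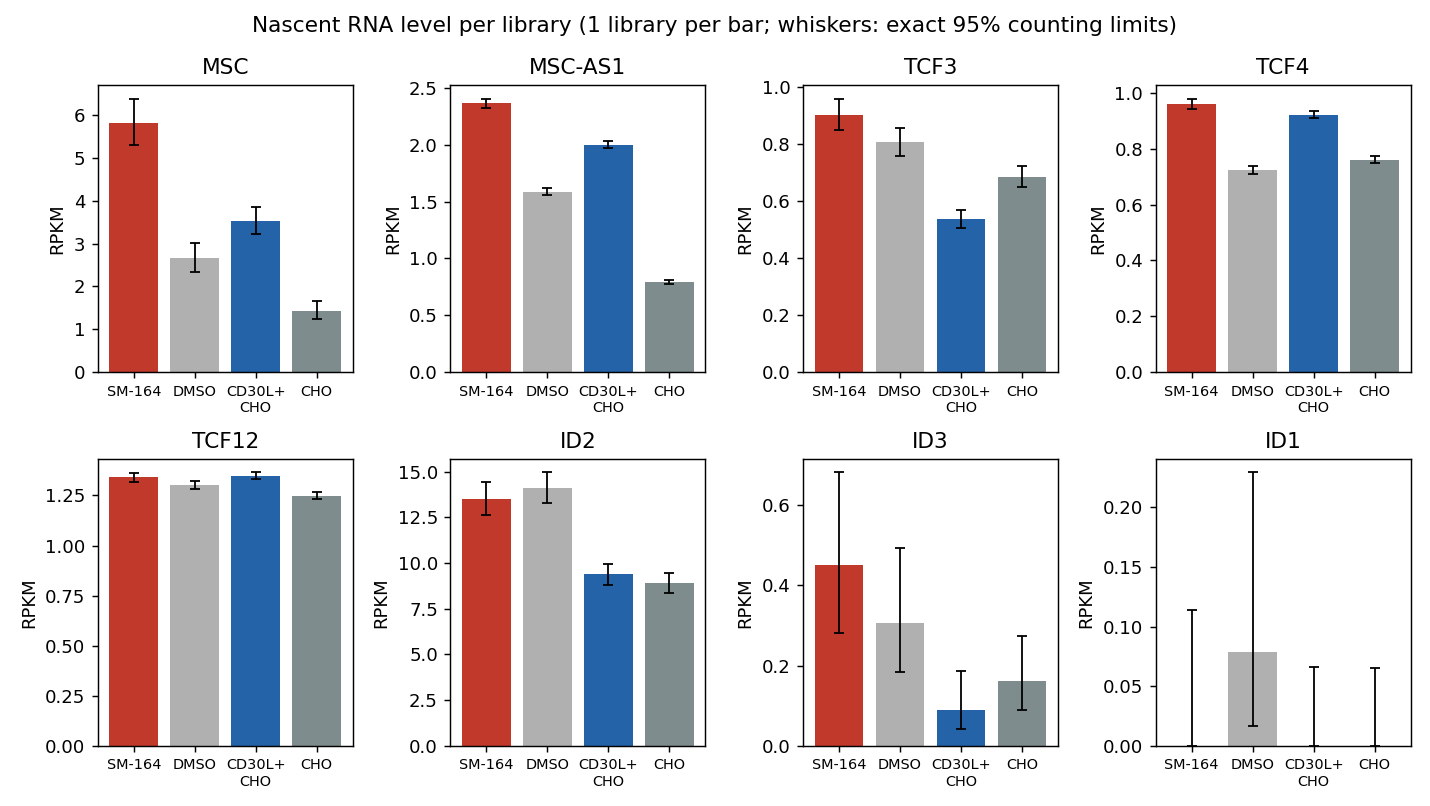
RPKM of MSC, the gene MSC-AS1 that overlaps it on the opposite strand and the other 6 genes, 1 bar per library, with whiskers for the exact 95% counting interval and a separate linear axis per gene. MSC stood at 5.82 with SM-164 and 1.43 on plain CHO cells, TCF12 kept between 1.25 and 1.35, and ID1 had no read in 3 of the 4 libraries.

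The first comparison, SM-164 against DMSO, asked what IAP antagonism did within 3 h. MSC had 451 estimated reads with SM-164 and 244 with DMSO, which is 2.19-fold per library total (95% interval 1.87 to 2.57). Its log2 ratio was 1.06 on the scale of RPKM plus 0.25, the 14th highest of 7881 genes tested, where a gene was tested at a mean of at least 0.5 RPKM and at least 300 counted bases. Of the 5 members tested, MSC alone was called at 2-fold; the background was 0.190% of all genes past 2-fold upward, 0.0634% downward and 0.254% in either direction, and at 1.5-fold 0.787%, 1.10% and 1.89%. Nothing is read from that count, because this comparison chose MSC. BIRC3, the gene of the inhibitor of apoptosis protein c-IAP2, was highest at 6.48-fold (6.27 to 6.70).

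In the second comparison, which the choice of MSC did not use, MSC had 475 estimated reads on CD30L+ CHO cells and 195 on plain CHO cells. The ratio was 2.45-fold per library total (2.07 to 2.92), with a log2 ratio of 1.17 that was the 46th highest of 7661 genes tested. MSC was again the 1 of 5 tested members at 2-fold, against a background of 0.979% of all genes past 2-fold upward, 0.731% downward and 1.71% in either direction, and at 1.5-fold 2.62%, 4.99% and 7.61%. Nothing is read from that count either. Of the 15 genes at least 2-fold higher with SM-164 and tested in both comparisons, 14 were so here as well. A gene chosen for its SM-164 value was thus likely to be called again. The 2-fold shares are 75 genes up and 56 down, which became 112 and 32 under TMM scaling and 92 and 40 once the median over genes was set to 0. BIRC3 was 10.2-fold higher (9.93 to 10.5).

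The CD30L ratio of MSC exceeded its SM-164 ratio by 0.17 on the log2 scale, with a counting interval from -0.16 to 0.50. As the SM-164 ratio chose MSC, nothing is read from this difference. For BIRC3 the same difference was 0.66 (0.59 to 0.72). The control libraries of the experiments differed as well: MSC on plain CHO cells was at 0.540 of its DMSO level (0.445 to 0.655), a log2 ratio of -0.79, and it ranked 563rd lowest of 8081 genes tested. In that comparison of controls 0 of 5 tested members were called at 2-fold, against 5.40% of genes in either direction, 0.879% upward and 4.52% downward. At 1.5-fold MSC and ID2 were called, both lower, against 17.8% of genes in either direction, 7.07% upward and 10.7% downward. Both calls were lost once the length trend was subtracted, with log2 ratios of -0.39 for MSC and -0.16 for ID2. With a pseudocount of 0.25 or 0.1, MSC was called in both treatment comparisons; with a pseudocount of 1 its log2 ratio was 0.90 in each and it was not called.

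**Figure D2:**
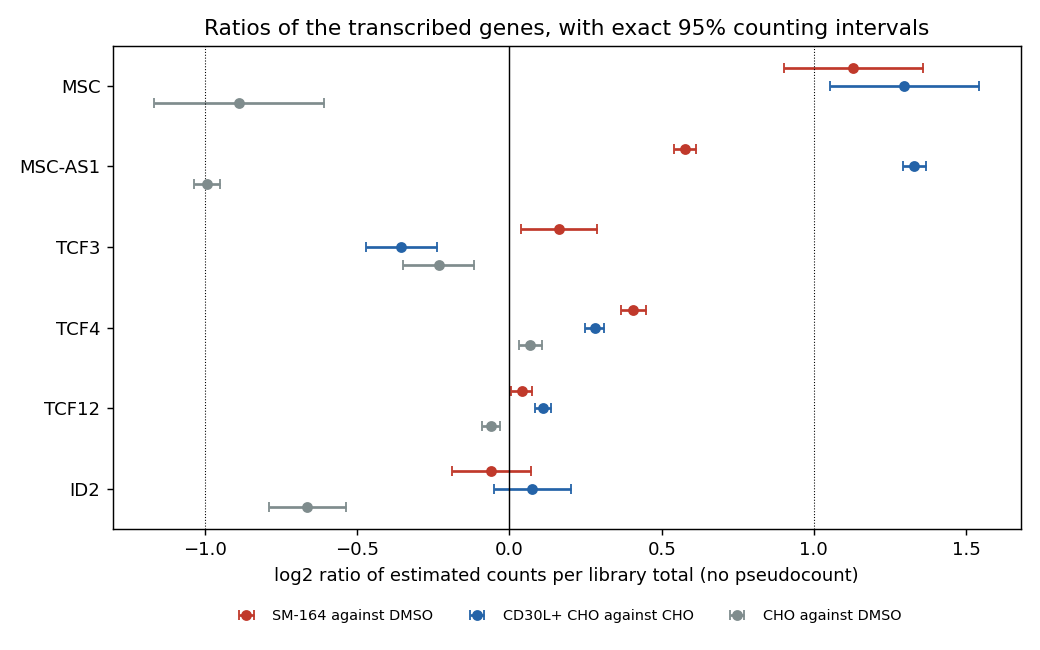
Log2 ratio of estimated counts per library total for MSC, MSC-AS1 and the transcribed members in 3 comparisons; points are single ratios and whiskers are exact 95% counting intervals, with dotted lines at 2-fold. MSC lay at 2.19-fold and 2.45-fold in the treatment comparisons and at 0.540 between the controls, and TCF12 lay near 0 in all 3.

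Short genes ran low in these comparisons, and MSC is short. Among the 579 tested genes of 2000 to 4000 counted bases, the median log2 ratio with SM-164 was -0.21 and MSC was the 2nd highest. Among 486 such genes on CD30L+ CHO cells the median was -0.24 and MSC was the 6th highest. After a running median over genes ordered by length was subtracted, the log2 ratio of MSC was 1.29 with SM-164 and 1.39 on CD30L+ CHO cells. Between the controls the median of 572 such genes was -0.41, MSC was the 413th highest, and its log2 ratio of -0.79 became -0.39.

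A long noncoding gene starts inside MSC and runs the other way. This gene, listed as LOC100132891 and named MSC-AS1 in RefSeq, lies on chromosome 8 from 72755358 to 72968547 on the plus strand (hg19) and shares 1374 bases with MSC on opposite strands. The labels' protocol limits strand-specific reads to certain samples without saying here which, so the split between both genes rests on the low antisense signal in the files. Its level was 2.37 RPKM with SM-164 and 1.59 with DMSO, and 2.00 on CD30L+ CHO cells and 0.797 on plain CHO cells. It was 1.49-fold higher with SM-164 (1.45 to 1.53) and 2.51-fold higher on CD30L+ CHO cells (2.45 to 2.58), and it was at 0.502 of the DMSO level on plain CHO cells (0.488 to 0.517). The CD30L ratio exceeded the SM-164 ratio by 0.75 on the log2 scale (0.70 to 0.81). On the plus strand opposite the part of MSC that lies outside this gene, the level was 0.0965 RPKM with SM-164, 0.113 with DMSO, 0.0622 on CD30L+ CHO cells and 0.0138 on plain CHO cells. Those values are 0.961% to 4.24% of the MSC level.

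Reads continued on the plus strand past the end of MSC-AS1. Opposite TRPA1, an ion channel gene with at most 5 reads of its own, a window of 19272 bases from 211.8 to 231.1 kb beyond the MSC start held 1.24 RPKM with SM-164 and 1.18 with DMSO, a ratio of 1.05 (0.941 to 1.17). The same window held 1.18 RPKM on CD30L+ CHO cells and 0.538 on plain CHO cells, a ratio of 2.18 (1.958 to 2.44). Opposite LOC392232, from 360.8 to 407.1 kb, the ratio was 0.843 with SM-164 (0.695 to 1.02) and 0.778 on CD30L+ CHO cells (0.548 to 1.10). The last window lies beyond the 200 kb set for neighbours and was chosen after its values were seen.

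**Figure D3:**
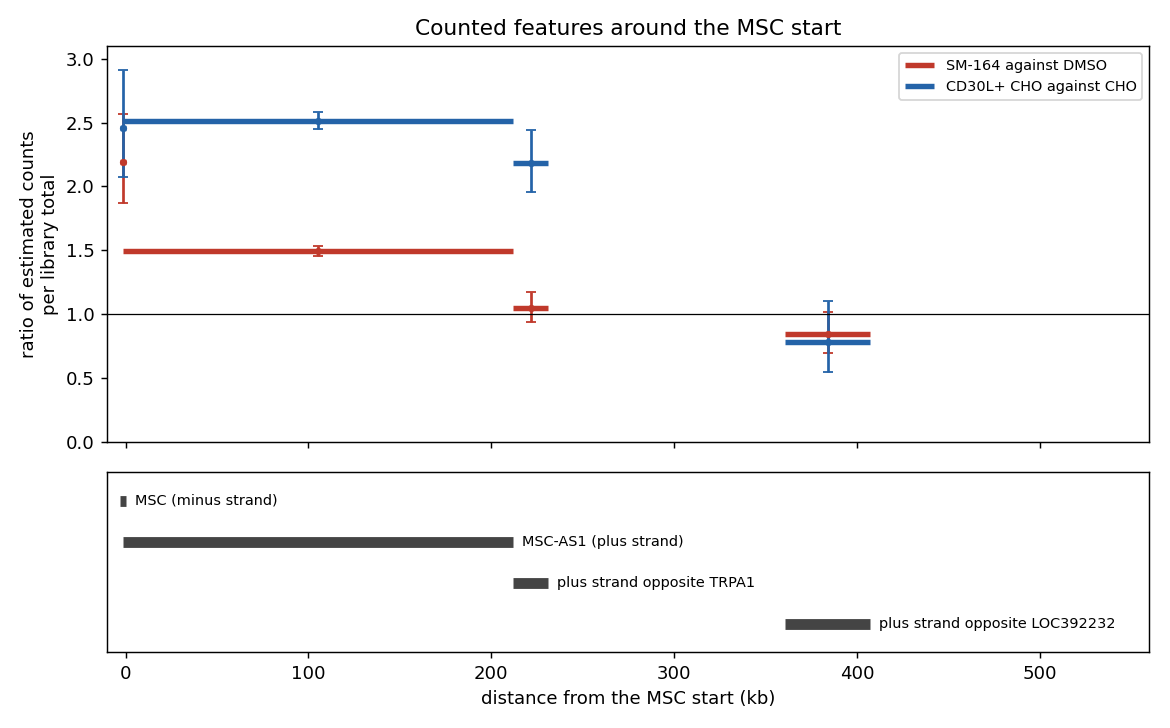
Ratio of estimated counts per library total, with exact 95% counting intervals, for 4 counted features against distance from the MSC start in kb; the lower panel shows the extent and strand of each feature. The SM-164 ratio is 2.19 at MSC, 1.49 over MSC-AS1 and 1.05 opposite TRPA1, where the CD30L ratios are 2.45, 2.51 and 2.18. Opposite LOC392232 the ratio is 0.843 with SM-164 and 0.778 on CD30L+ CHO cells.

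The E protein genes were transcribed at 0.537 to 1.35 RPKM and none was called at 2-fold in any comparison. TCF12, which encodes HEB, was the highest of the 3 and the steadiest: 1.34 RPKM with SM-164 and 1.30 with DMSO, and 1.35 on CD30L+ CHO cells and 1.25 on plain CHO cells. Its SD over the 4 libraries on the log2 scale was 0.036, and 2.01% of the 7861 genes compared had a smaller one. TCF12 was 1.03-fold with SM-164 (1.00 to 1.05) and 1.08-fold on CD30L+ CHO cells (1.06 to 1.10), a size that scaling can move.

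TCF4, which encodes E2-2, a factor known for plasmacytoid dendritic cells, was higher with both treatments. Its level was 0.962 RPKM with SM-164 and 0.725 with DMSO, and 0.923 on CD30L+ CHO cells and 0.760 on plain CHO cells. Both treated libraries lay above both controls. The ratios were 1.33-fold with SM-164 (1.29 to 1.36) and 1.21-fold on CD30L+ CHO cells (1.19 to 1.24), higher than 97.1% and 91.0% of the genes tested. Long genes ran near 0: among 314 tested genes of at least 200 kb the median log2 ratio with SM-164 was 0.03, and TCF4 lay above 96.8% of them. Among 315 such genes on CD30L+ CHO cells the median was -0.07, and TCF4 lay above 86.7%. TCF4 spans 413627 bases on chromosome 18 from 52889562 to 53303188 (hg19, minus strand), and its isoforms with separate starts are pooled in 1 value.

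TCF3, which encodes the E2A proteins E12 and E47 of early B and T cell development, differed in direction between the treatments. Its level was 0.903 RPKM with SM-164 and 0.806 with DMSO, a ratio of 1.12 (1.03 to 1.22). On CD30L+ CHO cells it was 0.537 RPKM and on plain CHO cells 0.687 RPKM, a ratio of 0.782 (0.721 to 0.848). The CD30L ratio was below the SM-164 ratio by -0.52 on the log2 scale (-0.69 to -0.35). The median of all genes was -0.12 in the CD30L comparison and TMM scaling moved it by 0.17. The log2 ratio of TCF3 in that comparison ranged from -0.30 to -0.11 over the alternatives, so its sign held and much of its size depends on scaling. RefSeq lists a pseudogene, TCF3P1, and how the authors' counting shared reads with it is not known.

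**Figure D4:**
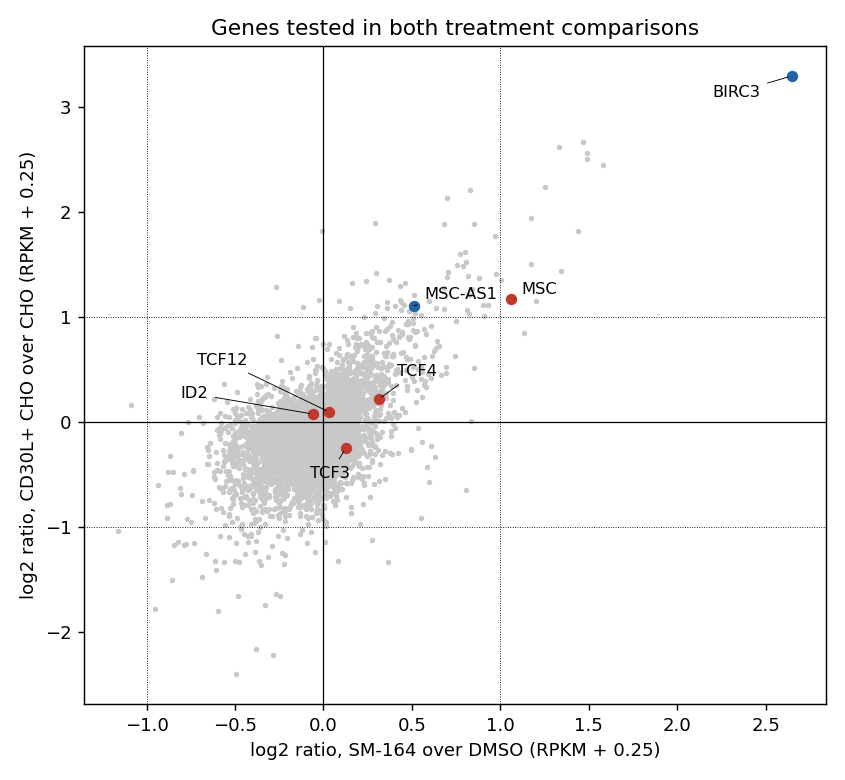
Log2 ratio on CD30L+ CHO cells over CHO cells against log2 ratio with SM-164 over DMSO for the 7210 genes tested in both, on the scale of RPKM plus 0.25; grey points are genes, red points the members tested, blue points MSC-AS1 and BIRC3, and dotted lines mark 2-fold. MSC lies past 2-fold on both axes at 1.06 and 1.17, TCF4 is above 0 on both, and TCF3 is above 0 with SM-164 and below 0 on CD30L+ CHO cells.

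Of the ID genes, ID2, which natural killer and innate lymphoid cells need for their development in mice, was among the most strongly transcribed genes of the line. Its level was 13.5 RPKM with SM-164 and 14.1 with DMSO, and 9.38 on CD30L+ CHO cells and 8.90 on plain CHO cells, above 98.9% to 99.0% of genes with at least 300 counted bases. The counting interval held a ratio of 1 for both treatments: the ratio was 0.959 with SM-164 (0.876 to 1.05) and 1.05 on CD30L+ CHO cells (0.966 to 1.15). Between the controls ID2 on plain CHO cells was at 0.631 of its DMSO level (0.579 to 0.688). Scaling and length move these values beyond the counting error. With the length trend subtracted, the log2 ratio of ID2 was 0.18 with SM-164 instead of -0.06, 0.34 on CD30L+ CHO cells instead of 0.07, and -0.16 between the controls instead of -0.65. Under TMM scaling it was 0.27 on CD30L+ CHO cells. RefSeq lists a pseudogene copy, ID2B, and how the authors' counting shared reads with it is not known.

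ID3 and ID1, which BMP and TGF-beta signals induce in many cell types, were close to the detection limit and did not reach the expression minimum. ID3 had 22 estimated reads with SM-164 and 17.7 with DMSO, and 7.60 on CD30L+ CHO cells and 13.7 on plain CHO cells, or 0.450, 0.305, 0.0894 and 0.160 RPKM. The ratio was 1.45 with SM-164 (0.741 to 2.86) and 0.576 on CD30L+ CHO cells (0.209 to 1.47), and at this depth no difference could be detected. ID1 had 3 reads with DMSO and 0 reads with SM-164, on CD30L+ CHO cells and on plain CHO cells. With 0 reads the upper 95% counting limit for ID1 was 0.114, 0.0658 and 0.0653 RPKM in those 3 libraries, so no ratio is given.

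The summed level of the 3 ID genes exceeded that of the 3 E protein genes in every library, and ID2 made up 96.8% to 99.1% of the ID sum. The ratio of the sums was 4.36 with SM-164 and 5.11 with DMSO, and 3.37 on CD30L+ CHO cells and 3.36 on plain CHO cells. MSC relative to the E protein sum was 1.82 with SM-164 and 0.939 with DMSO, and 1.26 on CD30L+ CHO cells and 0.532 on plain CHO cells. These are ratios of nascent RNA per length, with introns counted, and not of protein. Without ID2 the ID to E protein ratio fell to 0.140 with SM-164 and 0.135 with DMSO, and to 0.0319 on CD30L+ CHO cells and 0.0595 on plain CHO cells.

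Other tissue-restricted partners of E proteins were mostly silent. Of 34 genes in a list of these partners with ID4, 20 had no read in any library and FIGLA, a factor of oocytes, was the 1 that reached 0.5 RPKM, with 1.47 with SM-164 and 1.47 with DMSO, and 0.784 on CD30L+ CHO cells and 1.27 on plain CHO cells. The next highest was TAL2, a leukaemia oncogene, at 0.135 RPKM at most. Over 7 lists of the pathway with 125 genes, 36 were tested with SM-164 and 0 were called at 2-fold in either direction; 35 were tested on CD30L+ CHO cells, of which 1 was higher and 0 were lower. The shares over all genes were 0.190% higher and 0.0634% lower with SM-164, and 0.979% higher and 0.731% lower on CD30L+ CHO cells, and nothing further is read from counts this small.

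The 1 called gene was BHLHE40, a helix-loop-helix repressor of activated T cells, in the list of other E-box repressors. It was at 15.6 RPKM with SM-164 and 11.98 with DMSO, and at 19.9 on CD30L+ CHO cells and 7.64 on plain CHO cells, a ratio of 1.30 with SM-164 (1.23 to 1.38) and 2.60 on CD30L+ CHO cells (2.47 to 2.74). That list had 3 tested members of 13, with a median log2 ratio of 0.34 with SM-164, against -0.04 over all genes, and of 0.99 on CD30L+ CHO cells, against -0.12. Over all 13 genes, without an expression minimum, the medians were -0.016 and -0.013. Most of the 13 lay below the minimum, where the pseudocount draws log2 ratios towards 0. These medians therefore do not describe the 3 tested members. ZEB2, a zinc finger repressor at E-boxes, was at 11.8 RPKM on CD30L+ CHO cells and 5.82 on plain CHO cells, a log2 ratio of 0.99 just under the threshold and of 1.19 under TMM scaling. Its paralog ZEB1 had a log2 ratio of -0.01 there.

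The cofactors of E proteins stayed close to all genes, with a median log2 ratio of -0.0012 with SM-164 and -0.02 on CD30L+ CHO cells over 9 tested members each. The BMP, TGF-beta and EGR list had medians of -0.01 over 10 and -0.10 over 11. Genes for the turnover of ID and E proteins had medians of 0.02 over 6 and -0.13 over 5, and among them HUWE1, a ubiquitin ligase gene, was at 8.73 RPKM on CD30L+ CHO cells and 4.45 on plain CHO cells, a log2 ratio of 0.93. SKP2, a subunit of another ubiquitin ligase, was the lowest of the tested turnover genes there, at 1.09 RPKM on CD30L+ CHO cells and 1.91 on plain CHO cells, a log2 ratio of -0.69. STUB1, a ubiquitin ligase gene below the expression minimum there, was at 0.223 RPKM on CD30L+ CHO cells and 0.682 on plain CHO cells. Of 15 E protein targets of B cells 2 were tested, with medians of 0.19 and 0.12: BLK, a kinase, and POU2AF1, a coactivator. E protein targets of T cells had medians of 0.08 over 5 tested members with SM-164 and -0.15 over 4 on CD30L+ CHO cells. Of those 4, CD4, the coreceptor, was lowest at -0.64 and CXCR4, a chemokine receptor, highest at 0.96. NOTCH1, of the same list, was tested with SM-164 but fell below the expression minimum in the second comparison. It was at 0.147 RPKM on CD30L+ CHO cells and 0.413 on plain CHO cells, a log2 ratio of -0.74. Relative to the median of all genes, the CD30L median was 0.093 for the cofactors, 0.016 for the BMP, TGF-beta and EGR list, -0.016 for the turnover list and -0.036 for the T cell targets. The turnover median on CD30L+ CHO cells was 0.31 with a mean RPKM of at least 1 and 0.50 under TMM scaling. For the T cell targets these values were 0.095 and 0.033. The sign of both medians thus depended on the processing. Between the controls, CHO against DMSO, 38 list genes were tested; EGR1 (log2 ratio 1.25) and ZEB2 (1.04) were called higher and STUB1 (-1.14) lower, against 0.879% of all genes higher and 4.52% lower.

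The genes whose profile over the 4 libraries was nearest to that of MSC were CXCR4, BATF3, CMAHP, MSC-AS1, WDR65 and SAMD10, in this order. Likeness was the root mean square distance of log2(RPKM + 0.25) centred on each gene, over 4 libraries and among 7860 genes. The distance was 0.14 for CXCR4, 0.17 for BATF3, an AP-1 family factor of this lymphoma, and 0.22 for MSC-AS1, against a median of 0.74 over all genes. CXCR4 was at 8.73 RPKM with SM-164 and 5.09 with DMSO, and at 5.23 on CD30L+ CHO cells and 2.58 on plain CHO cells. BATF3 was at 19.8 RPKM with SM-164 and 12.1 with DMSO, and at 13.3 on CD30L+ CHO cells and 4.94 on plain CHO cells. The likeness is fixed by this choice and rests in part on the SM-164 value that chose MSC, so nothing further is read from it. CMAHP and SAMD10 differed from MSC in being lower on CD30L+ CHO cells than with DMSO.

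**Figure D5:**
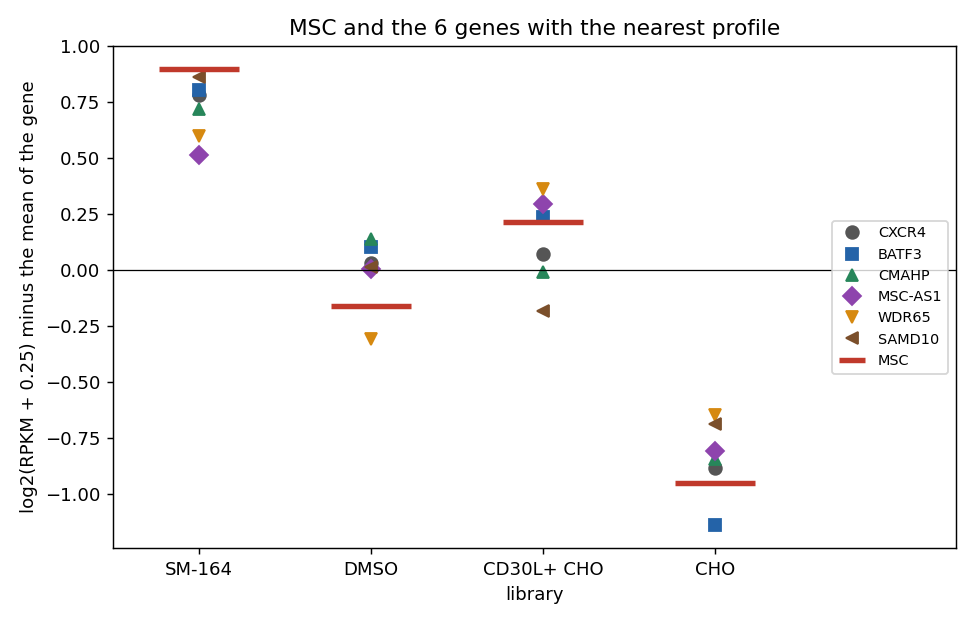
Log2(RPKM + 0.25) minus the mean of the gene in each library for MSC (red bars) and the 6 genes nearest to it (symbols). MSC runs from 0.90 with SM-164 to -0.95 on plain CHO cells, and the 6 genes were picked for their likeness to it.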

How the data were processed

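Nascent RNA of Karpas 299 cells was measured by Bru-seq in 4 libraries, 1 per condition. The submitters' processing notes name bedtools 2.16.2, TopHat 1.4.1, Bowtie 0.12.8 and CASAVA 1.8.2 with build hg19; no gene annotation is named in the sources used here. The authors deposited, per gene and strand, an estimated count over exons and introns, partly fractional; the signal, which equals that count divided by the counted bases; and the RPKM. Library totals were recovered from the deposited signal and RPKM.

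Sense features were used, 1 entry per symbol with most counted bases (186 entries dropped). Differences are log2 ratios of RPKM with a pseudocount of 0.25, called at 2-fold; folds are ratios of rounded counts per library total with exact conditional (Clopper-Pearson) 95% intervals, and levels have exact Poisson ones. Differences between log2 ratios have normal intervals from the counts. These intervals cover counting error only, since the spread between repeats was not measured. PCR copies cannot be told from separate molecules, so the intervals can be too narrow even for counting error. With 1 library per condition no test was made. Alternatives were other pseudocounts, filters, thresholds and scalings, with TMM from edgeR 4.0.16 in R 4.3.3, and a length correction. The other tools were matplotlib 3.10.9, scipy 1.17.1, pandas 2.3.3 and numpy 2.4.6 under Python 3.11.15. The procedure was tested on simulated counts with counting error only and with changes set larger than 2-fold. That does not bear on the spread between repeats or on smaller changes. Promoter windows come from RefSeq (GRCh38.p14).

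The members and lists were chosen with earlier results of these data known. Besides the members, the rule named at most 4 called genes per list and comparison, the 6 genes nearest to MSC, the 1 nearest to each other member, and BIRC3 and TNFAIP3. ALK, PAX5, DCN, MS4A1, FIGLA, TAL2, ZEB1, HUWE1, SKP2, BLK, POU2AF1, CD4, NOTCH1, TRPA1 and LOC392232 are named outside it, after their values were seen.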

Additional observations from a re-analysis of the deposited data

Results flagged for a closer look

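Antisense features, which the comparisons of the members do not use, held more signal in a treated library than in its control at 3 places, by a counting interval above 1. Opposite TCF4 there were 81 reads with SM-164 and 55 with DMSO, a ratio of 1.74 (1.22 to 2.50), and 132 reads on CD30L+ CHO cells and 75 on plain CHO cells, a ratio of 1.77 (1.33 to 2.39). These are 0.520% to 0.777% of the TCF4 level per length. Opposite MSC-AS1 there were 42 reads with SM-164 and 25 with DMSO, a ratio of 1.99 (1.18 to 3.40), and 54 on CD30L+ CHO cells and 24 on plain CHO cells, a ratio of 2.27 (1.38 to 3.84). On the plus strand opposite TRPA1, past the end of MSC-AS1, there were 1032 reads on CD30L+ CHO cells and 476 on plain CHO cells, a ratio of 2.18 (1.958 to 2.44). No replicate bears on any of them, and whether reads assigned to the wrong strand take part was not tested. The labels' protocol applies strand-specific synthesis to certain samples only, and which ones is not said in the sources at hand, a limit on every antisense value.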

How the results depend on the processing

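No paired analysis was possible because each condition has 1 library, and no library could be left out. Of 165 alternative log2 ratios of the members, 137 stayed within their counting interval and 28 moved beyond it. Of the called ratios, those of MSC with both treatments, 0 changed sign, and 3 uncalled ones did. The filters and the summing of entries could not move a member's own ratio, and for ID1 no move could be called. The 137 thus include repeats of the main value and are no measure of stability. With a pseudocount of 1, 0 members were called in either treatment comparison; the log2 ratio of MSC on CD30L+ CHO cells was then 0.90. With a threshold of 1.5-fold, 2 members were called between the controls, CHO against DMSO. TCF4 between the controls turned from 0.05 to -0.01 with the median set to 0 and to -0.03 under TMM scaling.

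Called genes of the pathway lists with SM-164 numbered 1 higher at 1.5-fold, against 0.787% of all genes. On CD30L+ CHO cells they numbered 2 higher with a pseudocount of 0.1 (85 over all genes), 4 with the median set to 0 (92), 4 under TMM scaling (112), 3 with the length trend subtracted (96), and 5 higher and 2 lower at 1.5-fold, against 2.62% and 4.99% of all genes. Between the controls there were 0 higher and 0 lower with a pseudocount of 1 (18 and 209 over all genes), 1 higher with the median set to 0 (59), 1 higher and 2 lower under TMM scaling (51 and 434), 1 higher and 0 lower with the length trend subtracted (137 and 232), and 5 lower at 1.5-fold, against 10.7% of all genes.

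The ratio of summed ID to summed E protein level depends on ID2 and on length. Without ID2 it was 0.140 with SM-164, 0.135 with DMSO, 0.0319 on CD30L+ CHO cells and 0.0595 on plain CHO cells. Per library total without length it was 0.0368, 0.0435, 0.0258 and 0.0277 in that order, and with MSC added to the ID genes 6.18, 6.05, 4.63 and 3.89.

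Over all genes with SM-164, 15 higher and 5 lower calls became 8 and 3 with a pseudocount of 1, 62 and 87 at 1.5-fold, and the lower calls 9 with a pseudocount of 0.1 or no expression minimum, 1 with at least 1000 counted bases and 0 with the length trend subtracted. On CD30L+ CHO cells the lower calls were 97 with a pseudocount of 0.1, 31 with a mean RPKM of at least 1, 32 under TMM scaling and 24 with the length trend subtracted; with a pseudocount of 1 there were 43 higher and 15 lower, and at 1.5-fold 201 and 382. Between the controls, 71 higher and 365 lower calls became 571 and 867 at 1.5-fold, and the higher calls 111 with a pseudocount of 0.1 and 46 with a mean RPKM of at least 1. The cause of these shifts was not tested. Depth limits ID1 and ID3, with at most 22 reads in a library.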

Other observations

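The nearest profile to each other transcribed member was that of GIMAP2, a GTPase gene of lymphocytes, for TCF3 (distance 0.0061), ROR2, a receptor tyrosine kinase gene, for TCF4 (0.018), AP2B1, a clathrin adaptor gene, for TCF12 (0.0066), and DNAJC9, a histone chaperone gene, for ID2 (0.020). Members that vary little over the 4 libraries have many near profiles, and the median distance over all genes was 0.20 for TCF12 and 0.34 for ID2. TNFAIP3, which encodes the NF-kB inhibitor A20, was at 16.3 RPKM with SM-164 and 6.32 with DMSO, and at 47.6 on CD30L+ CHO cells and 7.57 on plain CHO cells. Of the 15 genes at least 2-fold higher with SM-164 and tested in both comparisons, 14 were also at least 2-fold higher on CD30L+ CHO cells, which is 93.3% of the SM-164 genes and 20.6% of the 68 CD30L genes tested in both. Those 68 are out of 7210 genes tested in both, and over all genes tested on CD30L+ CHO cells the share past 2-fold upward was 0.979%. MSC is 1 of the 14, and nothing is read from that because its SM-164 value chose it.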
